A study of Mus musculus with 8 samples.

Results

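C-type lectin receptors of myeloid cells were examined in bone marrow-derived macrophages (BMDMs), with and without floxed Klf2. The 10 members, taken by gene name from the deposited expression table, are Clec4a1, Clec4a2, Clec4a3, Clec4d, Clec4e, Clec4n, Clec5a, Clec7a, Clec10a and Clec12a, out of 23761 genes in the table. Total RNA was sequenced from 4 LysM libraries (genotype LysM Cre/Cre) and 4 K2KO libraries (LysM Cre/Cre with KLF2 flox/flox) of mice at 3 months of age. All 8 libraries therefore carry Cre recombinase at the lysozyme M locus (Lyz2), which is active in myeloid cells, and are marked as vehicle in their descriptions. BMDMs are differentiated in a dish from marrow precursors with L929 fibroblast supernatant, so they model cultured macrophages and not those of a tissue. The libraries are called LysM0 to LysM3 and K2KO0 to K2KO3 after the columns of the table, which give the genotype and do not name the mouse, and p-values measure the spread between these libraries.

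C-type lectin receptors sit on the surface of macrophages, dendritic cells and neutrophils and bind sugars and lipids of fungi, bacteria and damaged cells. The activating members signal through the kinase Syk and the adaptor Card9 to NF-kB, either with a tyrosine motif of their own, as Dectin-1 does, or by borrowing that of the partner chains Fcer1g and Tyrobp. Inhibitory members carry a motif that recruits phosphatases such as Ptpn6. Klf2 is a zinc-finger transcription factor known to restrain inflammatory genes in myeloid cells.

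Of the 10 receptors, 2 were differentially expressed and both were higher in the libraries labelled K2KO. They were Clec4n, which encodes Dectin-2, a receptor for fungal mannans, at a ratio of means of 1.64, and Clec4d, which encodes the Dectin-2 relative Mcl, at a ratio of 1.25. None of the 10 was lower by the same rule, with limma or with ordinary least squares, and 1 (Clec10a) was lower at an unadjusted limma p under 0.05. Clec10a had the largest difference of the group in the other direction, with a K2KO mean of 0.514 times the LysM mean, and did not pass the test. Differential expression means an adjusted p under 0.05 in limma with Benjamini-Hochberg adjustment over the 10920 genes tested, and an absolute log2 fold change over 0.26, on the log2(FPKM + 0.1) scale. FPKM count fragments per kilobase of transcript relative to all mapped fragments, and adding 0.1 shrinks the fold change of a low gene below its ratio of FPKM. By this rule 18.4% of all tested genes were differentially expressed, 9.84% higher and 8.61% lower, so that 2 of 10 members is close to the share among all genes. The median log2 fold change was 0.11 over the members and 0.01 over all tested genes. All 10 members passed the filter of a mean of at least 1 FPKM over the 8 libraries, and Clec5a was just above it. Its mean was 0.810 FPKM in LysM and 1.29 FPKM in K2KO libraries, so it was tested only through its K2KO values. In bulk RNA, fewer cells of a kind and less RNA per cell cannot be told apart.

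**Figure D1:**
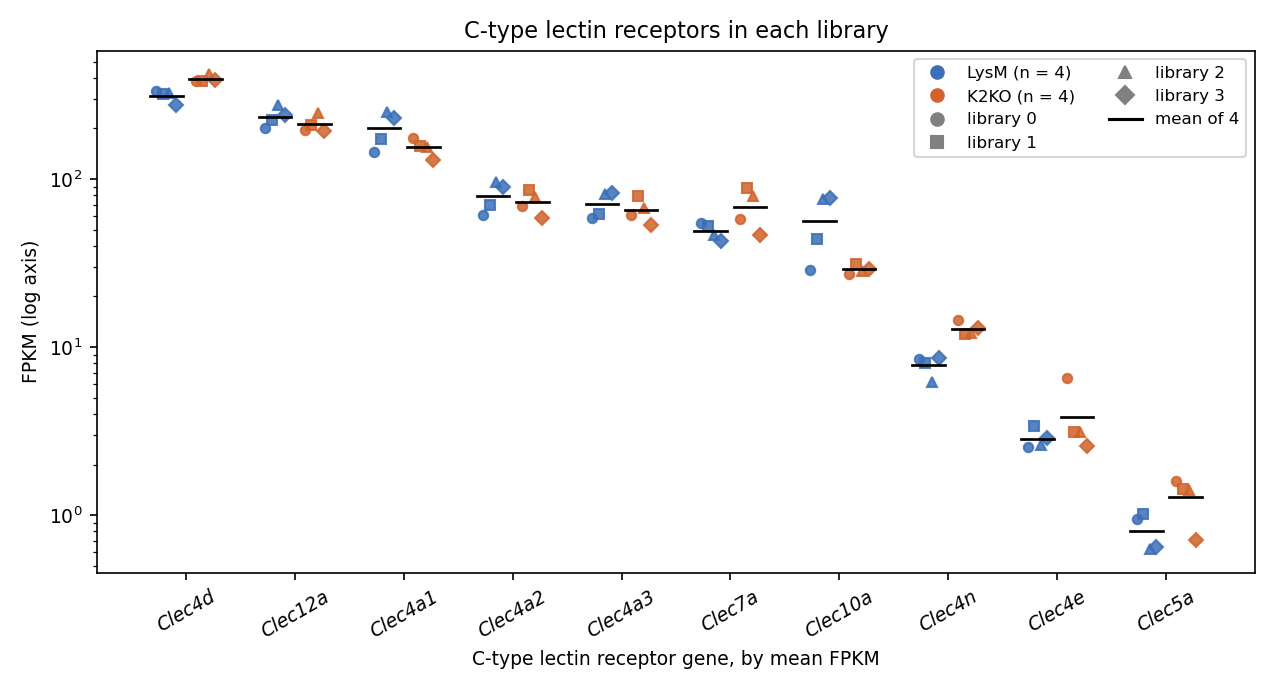
FPKM of the 10 C-type lectin receptors in each library on a log10 axis, with a point for each of the 4 LysM (blue) and 4 K2KO (orange) libraries, the shape giving the library number, and a bar at the group mean. The groups do not overlap for Clec4d and Clec4n, and the LysM points of Clec10a spread from 28.8 to 76.7 FPKM.

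The label of the K2KO libraries was first checked on Klf2 itself. Klf2 was at 44.1, 52.9, 64.7 and 72.8 FPKM in LysM0 to LysM3 and at 45.5, 41.6, 59.2 and 59.3 FPKM in K2KO0 to K2KO3. The groups overlapped, and the log2 fold change was -0.18 (SE 0.17, limma adjusted p = 0.460, n = 4 and 4). It lay between -0.31 (without LysM0) and -0.07 (without LysM3) with single libraries left out. Gene-level values cannot tell whether the floxed exons were covered, so the level of Klf2 does not tell the genotypes apart here, and the groups below are named by their labels.

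The receptors spanned a wide range of expression. Clec4d was the most abundant, with a mean over all libraries above that of 98.1% of tested genes, and Clec12a (96.7%) and Clec4a1 (95.8%) came next. Clec4a2, Clec4a3, Clec7a and Clec10a had means above those of 82.5% to 90.0% of tested genes. Clec4n was in the middle of the tested genes (50.8%), whereas Clec4e (21.7%) and Clec5a (0.705%) were low. Ordered by mean FPKM over all 8 libraries, the sequence was Clec4d, Clec12a, Clec4a1, Clec4a2, Clec4a3, Clec7a, Clec10a, Clec4n, Clec4e and Clec5a. Every pair of neighbours in that order stood the same way round in 8 of 8 libraries, except Clec4a3 with Clec7a and Clec7a with Clec10a, which did so in 6 of 8. Clec10a was above Clec7a in LysM2 and LysM3, and Clec7a was above Clec4a3 in K2KO1 and K2KO2. FPKM are scaled to transcript length, so these levels can be set side by side, although genes counted with a near-identical copy remain uncertain.

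The members of the Dectin-2 family lie together on chromosome 6 (GRCm38, GENCODE M21). Clec4n (ENSMUSG00000023349) runs from 123229843 to 123247021 on the plus strand, Clec4d (ENSMUSG00000030144) from 123262111 to 123275265 on the plus strand, and Clec4e (ENSMUSG00000030142) from 123281789 to 123289870 on the minus strand. The letters upstream of the start are shown for Clec4d, as the differentially expressed member with a window, for its neighbour Clec4e, and for Clec4a3, which holds the CACCC box bound by Krüppel-like factors more than once. Each is the 250 bases before the RefSeq start (GRCm38.p6), 5′ to 3′ on the strand of the gene, with matches on either strand to CACCC, the PU.1 core GAGGAA or the C/EBP-type motif TTGCNNAA in capitals. They lie at chr6:123261857-123262106 (plus strand) for Clec4d, chr6:123289872-123290121 (minus strand) for Clec4e and chr6:122952265-122952514 (plus strand) for Clec4a3.
Clec4d: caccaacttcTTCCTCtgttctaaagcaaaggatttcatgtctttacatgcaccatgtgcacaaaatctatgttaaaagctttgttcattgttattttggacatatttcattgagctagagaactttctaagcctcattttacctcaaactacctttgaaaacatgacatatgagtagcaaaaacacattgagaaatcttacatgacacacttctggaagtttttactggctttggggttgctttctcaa
Clec4e: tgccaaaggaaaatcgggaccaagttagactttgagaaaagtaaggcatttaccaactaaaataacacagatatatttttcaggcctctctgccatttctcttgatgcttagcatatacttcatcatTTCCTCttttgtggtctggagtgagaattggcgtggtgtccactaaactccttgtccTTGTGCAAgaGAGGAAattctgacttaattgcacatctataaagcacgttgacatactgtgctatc
Clec4a3: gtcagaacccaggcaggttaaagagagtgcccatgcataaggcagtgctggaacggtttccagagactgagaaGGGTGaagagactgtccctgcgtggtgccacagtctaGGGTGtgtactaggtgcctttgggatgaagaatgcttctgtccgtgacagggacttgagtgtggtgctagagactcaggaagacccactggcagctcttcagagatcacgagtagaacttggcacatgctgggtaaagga

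Windows were found for 8 of the 10 members, all except Clec4n and Clec10a. Those of Clec12a and Clec4a2 end at 129350243 and 123122689. GENCODE starts these genes at 129342691 and 123106428, so both windows lie inside the GENCODE genes. CACCC was present in 2 of the 8 (Clec4a1 and Clec4a3), against 52.0% of 32851 RefSeq windows of the same length. GAGGAA was present in 6 of the 8 (Clec4a1, Clec4d, Clec4e, Clec5a, Clec7a and Clec12a), against 23.3% of windows. TTGCNNAA was present in 2 (Clec4e and Clec12a), against 9.56%. The Clec4d window held a single GAGGAA match, whose first base is at -240 from the start, and neither of the other motifs. In the Clec4e window, GAGGAA matched at -123 and -56 and TTGCNNAA at -66, while CACCC matched at -177 and -140 in the window of Clec4a3. The matches in these windows did not overlap one another. A match of letters is a description of the window and shows no binding.

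Clec4n had the smallest adjusted p of the 10 receptors. It was at 8.44, 8.03, 6.21 and 8.60 FPKM in LysM0 to LysM3 and at 14.4, 11.9, 12.1 and 13.01 FPKM in K2KO0 to K2KO3. Every K2KO library lay above every LysM library, as was the case for 12.9% of all tested genes (23.1% in either direction). Among the members this held for Clec4n and Clec4d. The means were 7.82 ± 1.10 FPKM (SD, n = 4) and 12.9 ± 1.15 FPKM (SD, n = 4), and the log2 fold change was 0.72 (SE 0.11, 95% interval 0.47 to 0.97, limma adjusted p = 0.00834). An exact two-sided permutation test over the libraries gave p = 0.0286, the smallest that 4 against 4 libraries allow. Clec4n remained differentially expressed in 11 of 11 alternative settings and with each of the 8 libraries left out in turn.

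Clec4d encodes Mcl, which pairs with Mincle and with Dectin-2. It was at 333, 319.6, 326 and 277 FPKM in the LysM libraries and at 385, 382, 419 and 388 FPKM in the K2KO libraries, in the order of their numbers. The groups did not overlap, and the highest LysM library was below the lowest K2KO library. The means were 313.8 ± 24.9 FPKM (SD, n = 4) and 393.6 ± 16.9 FPKM (SD, n = 4), and the log2 fold change was 0.33 (SE 0.07, 95% interval 0.16 to 0.50, limma adjusted p = 0.0206, exact permutation p = 0.0286). This call was lost once libraries were corrected for GC content and length (log2 fold change 0.23, limma adjusted p = 0.0778), with no filter on low values (limma adjusted p = 0.0577), and without K2KO2, LysM1 or LysM3 (limma adjusted p = 0.0648, 0.0548 and 0.0586).

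Clec4e encodes Mincle, the receptor for mycobacterial cord factor. Its FPKM were 2.53, 3.38, 2.61 and 2.87 in the LysM libraries and 6.52, 3.10, 3.11 and 2.59 in the K2KO libraries. A single library, K2KO0, was high, and the other K2KO libraries lay within the LysM range. The log2 fold change was 0.33 (SE 0.25, limma adjusted p = 0.359), and without K2KO0 it was 0.05 (limma adjusted p = 0.815). After the GC and length correction, with all libraries, it was 0.13 (limma adjusted p = 0.762).

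Clec7a and Clec5a are the remaining activating receptors. Clec7a (ENSMUSG00000079293, chromosome 6 from 129461591 to 129472779, minus strand) encodes Dectin-1, the receptor for beta-glucan, and GENCODE lists it as a polymorphic pseudogene. It was at 55.1, 52.4, 46.5 and 42.9 FPKM in LysM0 to LysM3 and at 57.7, 88.1, 79.0 and 46.6 FPKM in K2KO0 to K2KO3. K2KO1 and K2KO2 stood well above all LysM libraries and K2KO0 just above them, whereas K2KO3 lay among them. The log2 fold change was 0.42 (SE 0.19, 95% interval 0.003 to 0.85, limma adjusted p = 0.130). With single libraries left out it ranged from 0.28 without K2KO1 (limma adjusted p = 0.288) to 0.59 without K2KO3 (limma adjusted p = 0.0241, where 2837 of all genes were called).

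Clec5a, which signals through Tyrobp, had the lowest expression of the members. Its values were 0.943, 1.02, 0.630 and 0.646 FPKM in the LysM libraries and 1.59, 1.42, 1.42 and 0.716 FPKM in the K2KO libraries. K2KO0, K2KO1 and K2KO2 were above all LysM libraries and K2KO3 was within their range. The log2 fold change of 0.58 (SE 0.28, limma adjusted p = 0.154) did not pass the test, and with single libraries left out it ranged from 0.47 without K2KO0 (limma adjusted p = 0.301) to 0.82 without K2KO3 (limma adjusted p = 0.0210). The log2 fold change of Clec5a was 0.33 with a pseudocount of 1 in place of 0.1, and 0.37 after the GC and length correction. With quantile normalization it was 0.89, and it passed the test in none of these settings. The number of reads behind FPKM this low is unknown. Because Clec5a passed the filter only through the K2KO libraries, its p-values cannot support a difference.

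**Figure D2:**
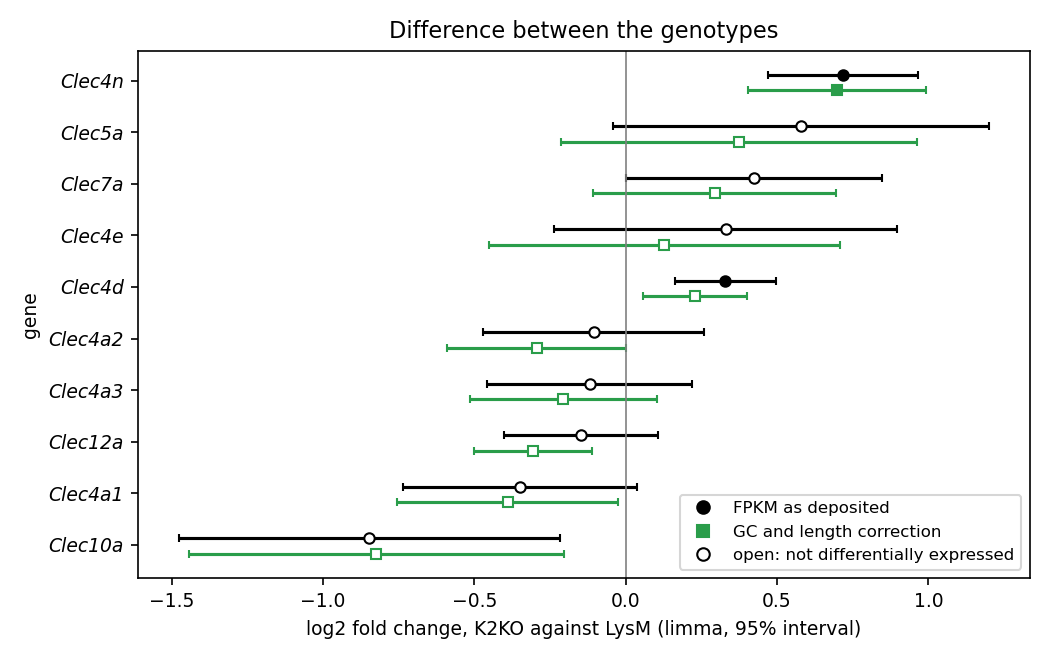
log2 fold change of each receptor, K2KO against LysM, on the log2(FPKM + 0.1) scale, with the 95% interval from limma as a bar, black circles for FPKM as deposited, green squares after the GC and length correction, and filled symbols where the gene was differentially expressed. Black circles of Clec4n and Clec4d are filled at 0.72 and 0.33, only Clec4n is filled after the correction (0.70), and Clec10a as deposited is lowest at -0.85 with an interval from -1.48 to -0.22.

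Clec10a encodes the galactose-type lectin Mgl1 and is often used as a marker of alternatively activated macrophages. It lies on chromosome 11 from 70156197 to 70170834 on the plus strand (ENSMUSG00000000318), apart from the other members. Its FPKM were 28.8, 44.0, 75.8 and 76.7 in LysM0 to LysM3 and 27.1, 31.02, 28.4 and 29.3 in K2KO0 to K2KO3. The LysM libraries differed among themselves by 2.66 times and the K2KO libraries by 1.14 times, and LysM0 lay within the K2KO range. The means were 56.3 ± 23.8 FPKM (SD, n = 4) and 29.0 ± 1.64 FPKM (SD, n = 4), and the log2 fold change was -0.85 (SE 0.28, limma adjusted p = 0.0585, exact permutation p = 0.0857). With single libraries left out it ranged from -0.66 without LysM3 (limma adjusted p = 0.171) to -1.13 without LysM0 (limma adjusted p = 0.0105), and without LysM0 alone did it pass.

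Clec10a shares 96.9% identity over 700 bases with its neighbour Mgl2, and its values are uncertain to that extent. Mgl2 was between 0.482 and 0.760 FPKM in all libraries. Summed, both genes came to 56.9 ± 23.9 FPKM (LysM) and 29.6 ± 1.69 FPKM (K2KO, SD, n = 4 each), a log2 difference of -0.83 (exact permutation p = 0.0857).

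The inhibitory Clec4a2 (Dcir), its cluster relatives Clec4a1 and Clec4a3, and the inhibitory Clec12a (Micl) did not pass the test. Clec4a1 was at 145, 173, 251 and 230.5 FPKM in LysM0 to LysM3 and at 176, 156, 155 and 129.8 FPKM in K2KO0 to K2KO3. LysM2 and LysM3 were high, and LysM0 and LysM1 lay within the K2KO range. The log2 fold change was -0.35 (SE 0.17, 95% interval -0.74 to 0.04, limma adjusted p = 0.164). With single libraries left out it ranged from -0.23 without LysM2 (limma adjusted p = 0.350) to -0.49 without LysM0 (limma adjusted p = 0.0456).

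Clec4a2 was at 61.0, 70.1, 95.7 and 89.3 FPKM in the LysM libraries and at 69.5, 85.9, 78.4 and 58.3 FPKM in the K2KO libraries. Clec4a3 was at 58.7, 61.7, 81.4 and 82.0 FPKM in the LysM libraries and at 61.5, 79.7, 66.9 and 52.9 FPKM in the K2KO libraries. Clec12a was at 199.98, 223, 275 and 239.9 FPKM in the LysM libraries and at 195, 209, 247 and 194 FPKM in the K2KO libraries. For each of the 3, LysM2 and LysM3 were the highest LysM libraries and the groups overlapped. The log2 fold changes were -0.11 (SE 0.16) for Clec4a2, -0.12 (SE 0.15) for Clec4a3 and -0.15 (SE 0.11) for Clec12a, with limma adjusted p between 0.365 and 0.658. Quantile normalization turned them to 0.03, 0.01 and 0.04. After the GC and length correction they were -0.29, -0.21 and -0.31, and none passed (limma adjusted p = 0.157, 0.324 and 0.0510). With single libraries left out, Clec4a2 lay between -0.22 (without LysM0) and -0.0025 (without K2KO3), Clec4a3 between -0.22 (without K2KO1) and -0.02 (without K2KO3), and Clec12a between -0.22 (without K2KO2) and -0.07 (without LysM2). Clec4a2 shares 96.3% identity over 436 bases with Clec4b1 and is uncertain in the same way as Clec10a.

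Libraries of the same genotype also differed. LysM2 and LysM3 were both above LysM0 and LysM1 in 5 members (Clec4a1, Clec4a2, Clec4a3, Clec10a and Clec12a), a pattern of 21.1% of tested genes, and below them in Clec5a and Clec7a, a pattern of 21.3%. K2KO3 was the lowest K2KO library in 7 members, which holds for 33.1% of tested genes. It was not the lowest for Clec4d, Clec4n and Clec10a. Summed over the 10 receptors, FPKM were 894, 956, 1161 and 1051 in LysM0 to LysM3 and 995, 1049, 1090.1 and 915 in K2KO0 to K2KO3. The sums overlapped between the groups. So did the share of Clec4d in them, at 26.4% to 37.2% in the LysM libraries and 36.5% to 42.4% in the K2KO libraries.

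Position in the cluster was compared with the fold changes. In the stretch of chromosome 6 that holds the Clec4 genes, Clec4a1, Clec4a3, Clec4b1 and Clec4a2 start at -368, -337, -239.9 and -183 kb from the start of Clec4e, and Clec4n and Clec4d at -60.03 and -27.8 kb. The log2 fold changes were -0.35, -0.12, -0.68 and -0.11 in the first 4 of these, and 0.72, 0.33 and 0.33 in Clec4n, Clec4d and Clec4e. Only Clec4b1, Clec4n and Clec4d were differentially expressed. Quantile normalization turned Clec4a2 and Clec4a3 to 0.03 and 0.01, and Clec4e was at 0.05 without K2KO0. Clec4a4 and Clec4b2 of the same stretch were under the filter, at means of 0.380 and 0.135 FPKM, and were not tested. A link with position was not tested. Clec4b1, an activating relative that is not among the 10 members, was the only tested gene of the stretch that was lower by both thresholds. It was at 14.4, 14.3, 22.5 and 19.03 FPKM in the LysM libraries and at 8.63, 13.0, 11.4 and 10.4 FPKM in the K2KO libraries, with a log2 fold change of -0.68 (SE 0.17, limma adjusted p = 0.0262). The groups of Clec4b1 did not overlap, as was the case for 10.2% of all genes in this direction. The sum of Clec4a2 and its near-identical Clec4b1 was 96.6 ± 20.03 FPKM and 83.8 ± 13.2 FPKM (SD, n = 4 each), a log2 difference of -0.19 (exact permutation p = 0.343).

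**Figure D3:**
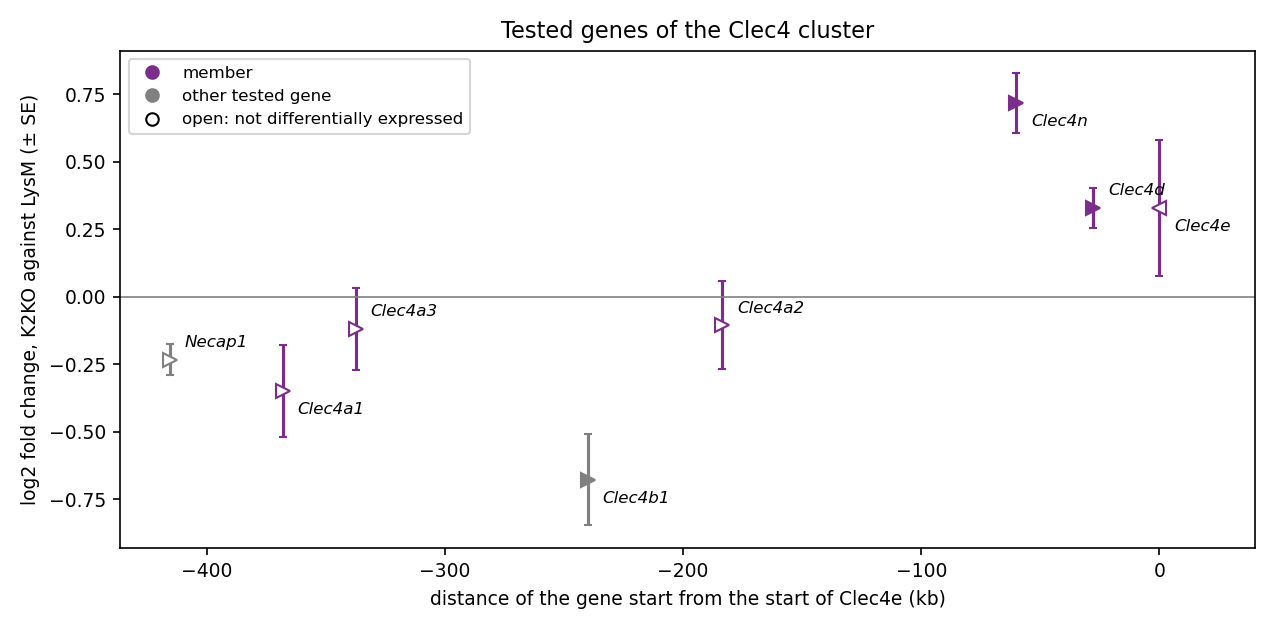
log2 fold change (K2KO against LysM, bars are SE) of the tested genes of the Clec4 cluster against the distance of their start from that of Clec4e in kb. Filled symbols were differentially expressed, triangles point along the strand, and Clec4n and Clec4d stand above 0 and Clec4b1 below it.

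Of 9 tested genes outside the member list that start within 100 kb of a member, 3 were lower by the test (8.61% of all tested genes were) and the other 6 did not pass. The 3 were Clec4b1 and, beside Clec10a, Rnasek (log2 fold change -0.35, SE 0.10) and 0610010K14Rik (-0.37, SE 0.09), of which the last 2 lost the call after the correction for GC content and length. Rnasek and 0610010K14Rik both overlap Gm21988, another of the 9, on the same strand, so these genes are not separate neighbours. Necap1, an endocytosis protein gene next to Clec4a1, had a log2 fold change of -0.23 (SE 0.06, limma adjusted p = 0.0260), under the fold threshold. The values of the others were 0.16 for C3ar1, the receptor for the anaphylatoxin C3a, 0.17 for Clec1b, 0.32 for Gabarapl1, -0.28 for Gm21988 and -0.09 for Slc16a13.

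Other C-type lectins were read from the same fit. Of 41 on the list, 38 were in the table, 10 passed the filter and 26 stayed under 1 FPKM in every library. None of the 10 tested was higher in limma (2 at an unadjusted p under 0.05) or in ordinary least squares. In limma 2 were lower (20%, against 8.61% of all tested genes), Clec4b1 and Cd72. The latter is an inhibitory receptor of B cells that is also transcribed in macrophages. Ordinary least squares called neither Clec4b1 nor Cd72 (adjusted p = 0.0777 and 0.0599). Cd72 was at 664, 781, 984 and 903 FPKM in LysM0 to LysM3 and at 508, 362, 526 and 572 FPKM in K2KO0 to K2KO3. All K2KO libraries were below all LysM libraries, and the log2 fold change was -0.76 (SE 0.16, limma adjusted p = 0.0178). Its mean was above that of each of the 10 members in both groups. The mannose receptor Mrc1 was at 31.2 ± 4.57 and 32.1 ± 5.84 FPKM, Clec2d at 69.6 ± 10.4 and 60.4 ± 9.73 FPKM, and Cd93 at 49.98 ± 2.95 and 55.2 ± 4.56 FPKM (SD, n = 4 each), and these 3 did not pass the test.

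Of 45 genes that carry the receptors' signal, 2 were higher and 7 lower (20% in all, against 18.4% of all tested genes), with a median log2 fold change of -0.06. Among the partner chains, Fcer1g, on which Dectin-2, Mincle and Mcl depend, was at 2616, 2868, 3174 and 3245 FPKM in LysM0 to LysM3 and at 1999.8, 2092, 2269 and 2608 FPKM in K2KO0 to K2KO3. The groups did not overlap, although K2KO3 was close to LysM0, and the log2 fold change was -0.41 (SE 0.11, limma adjusted p = 0.0305). That call was kept in 6 of 11 alternative settings and, of the 8 libraries left out in turn, only without LysM0 or K2KO3, and the log2 fold change was -0.05 under quantile normalization. Clec4n and Clec4d were higher, and the chain they pair with lower, in the libraries labelled K2KO. Hcst, the chain of the receptor Nkg2d, was also lower (log2 fold change -0.31, SE 0.08), a call lost after the GC and length correction (-0.04, limma adjusted p = 0.731), and Tyrobp, the chain of Clec5a, did not pass (-0.16, SE 0.07, limma adjusted p = 0.134).

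Syk, the kinase that the activating receptors share, was at 86.4 ± 4.55 and 85.5 ± 5.92 FPKM (SD, n = 4 each), a log2 fold change of -0.02 (SE 0.07). The kinases Prkcd (0.04, SE 0.08) and Lyn (-0.10, SE 0.07) did not pass either. Among the kinases, the Src-family member Fgr was lower (-0.995, SE 0.15). Fgr was at 3.00, 3.21, 3.81 and 3.78 FPKM in the LysM libraries and at 1.61, 2.18, 1.64 and 1.36 FPKM in the K2KO libraries, with no overlap. Of 11 genes of the Card9 complex and scaffolds, the ubiquitin ligase Traf6 was higher (0.28, SE 0.07), whereas Card9 did not pass (-0.24, SE 0.09, limma adjusted p = 0.0785). The most abundant scaffolds that did not pass were Lat2 (-0.13, SE 0.12), Vav1 (-0.22, SE 0.07) and Bcl10 (-0.06, SE 0.07). Of 7 phosphatases and other brakes, 4 were differentially expressed in limma (background 18.4%) and 1 in ordinary least squares. Ptpn6 (-0.30, SE 0.08), the ubiquitin ligase Cbl (-0.38, SE 0.10) and the adaptor Dok3 (-0.58, SE 0.07) were lower, and Cblb, which tags activated lectin receptors for degradation, was higher (0.45, SE 0.10). Dok3 ranged from 60.2 to 67.9 FPKM over the LysM and from 40.6 to 47.2 FPKM over the K2KO libraries. The lipid phosphatase gene Inpp5d (-0.12, SE 0.06), Ptpn11 (0.22, SE 0.08) and Ubash3b (-0.01, SE 0.13) did not pass. None of 9 transcription factors and none of 4 inflammasome genes passed both thresholds, although 2 and 1 of them had a limma adjusted p under 0.05. At an unadjusted limma p under 0.05 there were 6 transcription factors, 5 of them lower, and 1 inflammasome gene, and ordinary least squares called none of these either. The most abundant transcription factors were Irf5 (-0.23, SE 0.06), Rela (-0.26, SE 0.09) and Irf1 (0.11, SE 0.23), and the most abundant inflammasome genes were Casp1 (0.14, SE 0.08), Casp8 (0.21, SE 0.06) and Nlrp3 (0.11, SE 0.15). Sap130, whose protein is a ligand of Mincle, did not pass (0.24, SE 0.12).

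Genes that these receptors are known to induce were read in the same way. Of 20 on the list, 12 were tested, none was higher in limma (2 at an unadjusted p under 0.05) or in ordinary least squares, and 8 stayed under 1 FPKM in every library. In limma 5 were lower (41.7%, against 8.61% of all tested genes), and the median log2 fold change was -0.52. With ordinary least squares 1 was lower, and with no filter on low values 1 was called. The 5 were Ccl2 (-0.96, SE 0.26), Ccl3 (-0.74, SE 0.15), Ccl4 (-0.70, SE 0.09), Il10 (-0.65, SE 0.18) and Cxcl2 (-0.61, SE 0.17). Chemokines of this list had been seen to be lower in these libraries before it was written, so that its count is not independent evidence. Tnf was at 4.73 ± 0.926 and 6.38 ± 0.751 FPKM (SD, n = 4 each) and did not pass (log2 fold change 0.44, SE 0.14, limma adjusted p = 0.0511), but after the correction for GC content and length it was higher in the K2KO libraries (0.53, SE 0.14, limma adjusted p = 0.0485). The most abundant genes of this list that did not pass were Egr1 (-0.27, SE 0.15), Il1b (-0.43, SE 0.30) and Egr2 (-0.19, SE 0.21).

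**Figure D4:**
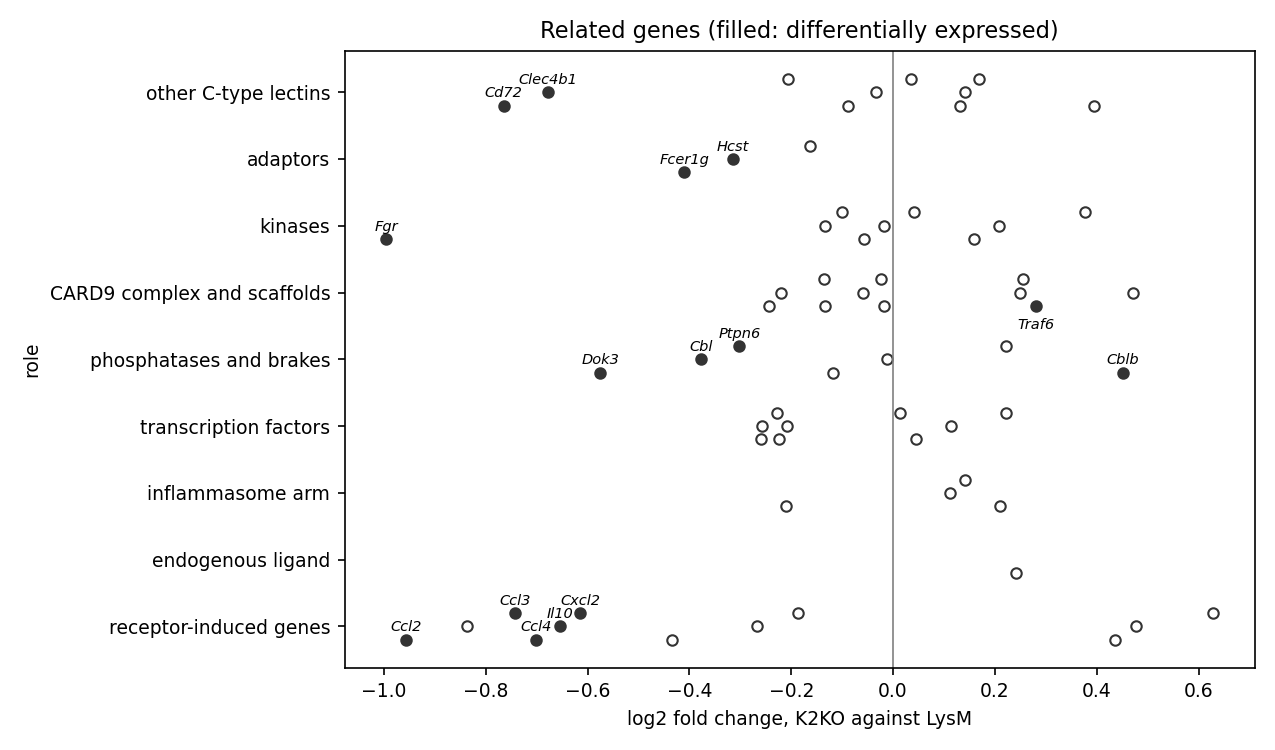
log2 fold change (K2KO against LysM) of the tested genes of each role, with a point for each gene and named, filled points where it was differentially expressed. A gene that is not reported is not drawn. Fcer1g, Hcst, Fgr, Ptpn6, Cbl and Dok3 lie below 0 and Traf6 and Cblb above it, and the 5 filled receptor-induced genes lie between -0.96 and -0.61.

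The fold changes varied with the base composition of the transcripts. Over 10899 genes, the log2 fold change and the GC content had a Spearman correlation of -0.40, which describes genes of the same libraries and is no test. The median GC content of the longest transcript was 41.2% for the members and 49.8% for all tested genes, and 9 of 10 members lay below that median. After each library was corrected for GC content and length, 10% of all genes were differentially expressed, and Clec4n remained so (log2 fold change 0.70, SE 0.13, limma adjusted p = 0.0202) while Clec4d did not. The corrected log2 fold change of Clec12a was -0.31 (SE 0.09, limma adjusted p = 0.0510) and that of Clec10a was -0.82 (SE 0.27, limma adjusted p = 0.0775). Of the partner chains, Fcer1g was still lower after the correction (-0.31, SE 0.07, limma adjusted p = 0.0337). Fgr, Cbl, Dok3 and Cblb also kept their calls, whereas Traf6 (0.12, SE 0.06, limma adjusted p = 0.185) and Ptpn6 (-0.21, SE 0.08, limma adjusted p = 0.124) lost theirs. Of the neighbouring genes, Clec4b1 kept its call, Rnasek (-0.13, SE 0.06, limma adjusted p = 0.173) and 0610010K14Rik (-0.15, SE 0.05, limma adjusted p = 0.0636) lost theirs, and Necap1 gained one (-0.27, SE 0.06, limma adjusted p = 0.0283).

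**Figure D5:**
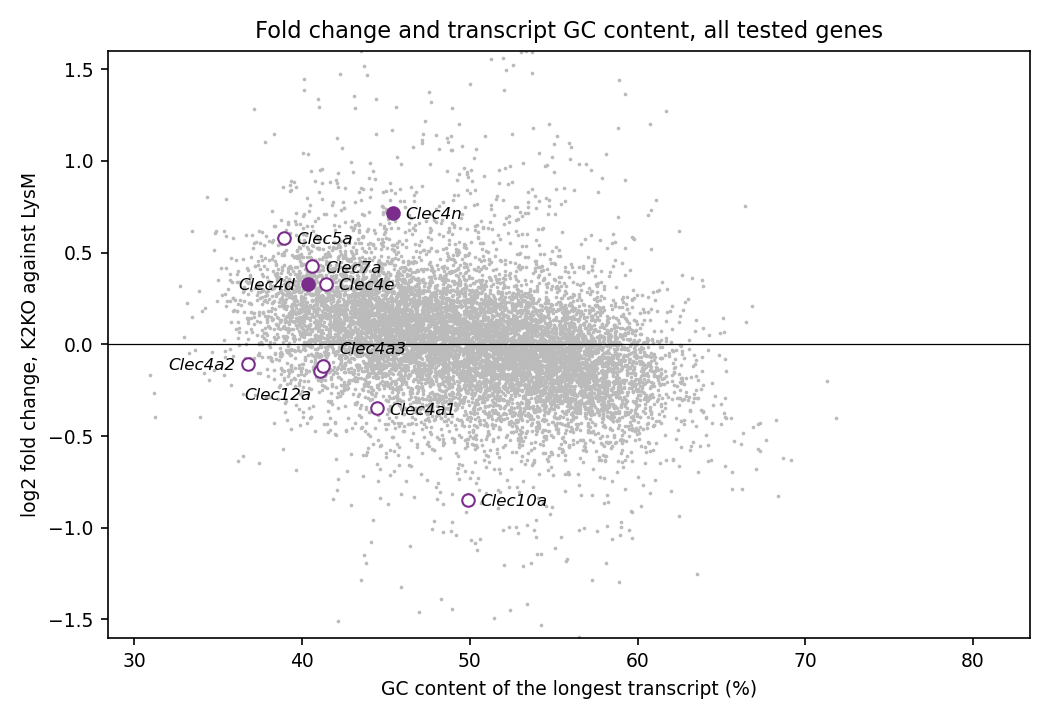
log2 fold change (K2KO against LysM) against the GC content of the longest transcript in percent, with each of 10899 tested genes in grey and the 10 receptors in purple, filled where differentially expressed. The vertical axis is limited to -1.6 to 1.6, which leaves out 118 genes, and the receptors other than Clec10a lie at the low-GC side of the median of 49.8%.

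The identity of the cells was checked on marker genes. Macrophage markers were present in all libraries, led by Cd68 at a mean of 1807 FPKM, while Mertk and Lyz2 had means of 16.3 and 15.9 FPKM. Summed over 9 macrophage genes, FPKM were 4185, 4283, 4056 and 4201 in LysM0 to LysM3 and 3862, 3795, 3957 and 3956 in K2KO0 to K2KO3. These sums did not overlap, but FPKM summed over all genes also tended to be lower in the K2KO libraries. Those totals were 497253 to 551608 (LysM) and 448235 to 501965 (K2KO), so the macrophage sums do not measure a share of cells. Of the 9 genes, Mertk was higher (log2 fold change 0.36, SE 0.09, and not called after the GC and length correction) and Lyz2 lower (-0.49, SE 0.12). Lyz2, which holds the Cre in both genotypes, was at 11.5 to 22.5 FPKM. Summed FPKM of 10 neutrophil markers were 187, 273, 235 and 323 in the LysM libraries and 178, 296, 233 and 311 in the K2KO libraries, led by S100a9, and Camp was lower (-1.14, SE 0.24). Of 5 monocyte markers, Spn was lower (-0.75, SE 0.15) and Nr4a1 was the most abundant. Summed markers of dendritic cells, which express many of these receptors, ranged from 0.773 to 3.05 FPKM (LysM) and from 2.48 to 5.82 FPKM (K2KO), led by Ccr7. Of the 9 genes, Ccr7 was tested and did not pass, and the other 8 stayed under 1 FPKM in every library and were not tested. Among these 8, Siglech, a marker of plasmacytoid dendritic cells, was at 0.0658 to 0.295 FPKM (LysM) and 0.339 to 0.712 FPKM (K2KO) with no overlap, Flt3 had means of 0.284 and 0.520 FPKM, and Zbtb46, which defines conventional dendritic cells, had means of 0.0816 and 0.0548 FPKM. The most abundant B cell, mast cell or basophil, erythroid, fibroblast, T cell and NK cell markers had LysM and K2KO means of 2.13 and 2.81 (Cd79b), 0.993 and 1.97 (Prss34), 0.574 and 0.852 (Hba-a1), 0.271 and 0.691 (Dcn), 0.0545 and 0.134 (Cd3d), and 0.0554 and 0.0921 FPKM (Klrb1c). Kit, on the mast cell and basophil list, was at 0.101 to 0.177 FPKM (LysM) and 0.267 to 0.394 FPKM (K2KO) with no overlap, and was not tested. Summed over that list, the groups overlapped, at 0.650 to 2.51 FPKM (LysM) and 1.41 to 4.07 FPKM (K2KO). Kit and Siglech were picked after their values were seen, and 12.9% of tested genes were likewise higher in K2KO with no overlap. The part of these markers in the receptor values was not tested.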

How the data were processed

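Total RNA of 8 BMDM libraries, 4 LysM and 4 K2KO, was sequenced. The authors deposited 1 table of FPKM for 23761 genes, without read counts, so the depth of the libraries is unknown and no counting error is given. The paper's methods name TopHat2, the mm10 build and Cufflinks, whereas the submitters' processing notes name STAR, Cufflinks and Cuffdiff, and the labels name another RNA kit than the methods. Columns were mapped to a genotype only. Names and positions came from GENCODE M21 (GRCm38), which matched 23645 genes, and promoter windows from RefSeq.

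The 10920 genes with a mean of at least 1 FPKM were compared on log2(FPKM + 0.1) with limma 3.58.1 (lmFit, eBayes with trend) in R 4.3.3, with no covariate. The study's own cutoffs defined differential expression, namely an absolute log2 fold change above 0.26 with a Benjamini-Hochberg adjusted p below 0.05. For single genes and sums, exact two-sided permutation of the genotypes (35 arrangements, scipy 1.17.1) was used. Transcripts with at least 95% identity over at least 200 bases (blastn 2.17.0) count as near-identical. Named genes are the members, Klf2, each differentially expressed gene of 3 lists (other lectins, signalling, induced genes), up to 3 of the most abundant of the rest in each role, tested neighbours within 100 kb, and for markers the most abundant and each differentially expressed gene. A signalling gene of that rule is counted in the lists but not reported here. Zbtb46, Siglech, Flt3, Kit, Card9 and Tnf fall outside this rule and were named after their values were seen. The members and lists were chosen with earlier results of these data known. Alternatives were another pseudocount, filter or scaling, limma without a trend, ordinary least squares, a local regression on GC content and length (span 0.3), a block on the column number and each library left out.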

Additional observations from a re-analysis of the deposited data

Results flagged for a closer look

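In 62 groups of 4 libraries, 3 held a library far from the other 3 by Dixon's test, and chance gives about 1 in 20. Clec4d was at 419 FPKM in K2KO2, against 382 to 388 FPKM in the other K2KO libraries. Clec4e was at 6.52 FPKM in K2KO0, against 2.59 to 3.11 FPKM in the others. Ptpn6, the phosphatase that inhibitory lectins recruit, was at 97.3 FPKM in K2KO1, against 86.2 to 87.2 FPKM in the others.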

How the results depend on the processing

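The 10920-gene table gave 2014 differentially expressed genes, against 1097 with the GC and length correction, 483 with no filter on low values, 746 with ordinary least squares and 868 with the column number as a replicate block plus that correction. Members numbered 2, against 1 with the correction and 1 with no filter. Other lectins (2) numbered 0 with no filter, 0 with least squares and 1 with the block and correction. Signalling genes (9) numbered 5, 2, 4 and 3 under the correction, no filter, least squares and the block with correction, and 5 with quantile normalization. Induced genes (5) numbered 1 with no filter, 1 with least squares and 2 with the block and correction. Clec4d had a log2 fold change of 0.23 with the correction, 0.33 with no filter and 0.23 with the block and correction (limma adjusted p = 0.110), past the threshold in none of these. Klf2 turned to 0.039 with the correction, alone and with the block. Quantile normalization turned Clec4a2 to 0.033, Clec4a3 to 0.0070 and Clec12a to 0.040, and the block with correction took Clec12a to -0.31, past the threshold (limma adjusted p = 0.0377). The cause was not tested. Upper-quartile scaling gave 1335 higher and 748 lower genes, against 1074 and 940.

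With each library left out in turn, differentially expressed genes numbered 337 (without LysM3) to 2837 (without K2KO3), members 1 to 4, other lectins 0 to 2, signalling genes 2 to 15 and induced genes 1 to 6. Log2 fold changes ranged from -0.49 to -0.23 for Clec4a1, 0.27 to 0.36 for Clec4d, 0.47 to 0.82 for Clec5a, 0.28 to 0.59 for Clec7a, -1.13 to -0.66 for Clec10a, -0.22 to -0.0025 for Clec4a2, -0.22 to -0.02 for Clec4a3, -0.22 to -0.07 for Clec12a, and for Klf2 from -0.31 without LysM0 to -0.07 without LysM3. The members numbered 1 without K2KO2, LysM1 or LysM3, and 4 without K2KO3 or LysM0. Clec4b1 was lost without K2KO0, K2KO2, LysM2 or LysM3, and Cd72 without K2KO2 or LysM3.

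Deviations of libraries with the same number correlated between -0.07 and 0.07, and those with different numbers between -0.14 and 0.18. These values show no sign of pairing by number, but they cannot tell whether libraries were handled in pairs. The replicate block alone gave 2057 differentially expressed genes and the same 2 members.

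FPKM without counts leave the precision of low genes such as Clec5a and Clec4e unknown.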
